A study of Mus musculus with 3 samples.

Results

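The genes described here are 5 chemokine genes of the mouse, found by their symbols among the 55357 genes of the deposited matrices: the ligands Cxcl9 and Cxcl10 with their shared receptor Cxcr3, and the ligand Cxcl16 with its receptor Cxcr6. All 5 were present. Their transcripts were counted as unique molecular identifiers (UMIs, tags that mark single captured RNA molecules) in 3 droplet single-cell libraries made from tumours of LLC1, a mouse Lewis lung carcinoma line, growing in bone. Mice 8 weeks old received 1000000 LLC1 cells in 10 µL into the marrow of the right tibia, and the tumours were taken on day 14. The groups were wild-type mice, whose label names no Cre, DMP1-Cre Mfn2-/- mice and DMP1-Cre Rhot1-/- mice. The Dmp1 promoter drives Cre in osteocytes and late osteoblasts, so the deletion is aimed at bone cells and not at the tumour or the immune cells. Mfn2 encodes mitofusin-2, a mitochondrial fusion protein, and Rhot1 encodes Miro1, which couples mitochondria to transport along microtubules. Each library pooled the tumours of 3 mice in equal parts, and no map from cells to mice was used here. With 1 library per genotype there is no replicate spread and no test. The intervals given are exact 95% intervals for counting error alone, and they are too narrow where a few cells hold most UMIs.

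CXCL9 and CXCL10 are small secreted proteins that cells make after interferon exposure, CXCL9 mainly after interferon-gamma and CXCL10 after type I interferon and other inflammatory signals as well. Both bind CXCR3, a receptor coupled to inhibitory G proteins that draws activated CD8 T cells, helper T cells of the type 1 kind and NK cells towards the source. CXCL16 is made as a membrane-anchored protein on macrophages and dendritic cells, where it can hold cells that carry CXCR6, and it is released as a soluble chemoattractant when proteases such as ADAM10 cut it. CXCR6 marks T cells that stay in tissues, and in tumours it is known on CD8 T cells that sit close to CXCL16-bearing myeloid cells.

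In the mm10 genome with GENCODE M21 gene models, Cxcl9 (chr5:92321347-92328079) and Cxcl10 (chr5:92346638-92348889) lie next to each other on the minus strand, with 18558 bases between them. Cxcl16 is at chr11:70453983-70459984 on the minus strand, Cxcr3 at chrX:101731535-101734269 on the minus strand and Cxcr6 at chr9:123806475-123811760 on the plus strand. Genes on the opposite strand overlap 3 of them: Art3 covers all 2252 bases of Cxcl10, Zmynd15 covers 552 bases of Cxcl16 and Fyco1 covers all 5286 bases of Cxcr6. Whether the counting used the strand is not given in the sources used here, so reads of these pairs may not be separable. RefSeq promoters on GRCm38.p6 matched 4 of the 5 genes, all but Cxcl16. The 250 bases before the start of the neighbours Cxcl10 and Cxcl9 are printed 5′ to 3′ in the sense of the gene, because the levels of these neighbours followed different cell types below. Capitals mark matches to an interferon-stimulated response element (ISRE, GAAANNGAAA) or to the NF-kB consensus.
Cxcl10, chr5:92348890-92349139, minus strand: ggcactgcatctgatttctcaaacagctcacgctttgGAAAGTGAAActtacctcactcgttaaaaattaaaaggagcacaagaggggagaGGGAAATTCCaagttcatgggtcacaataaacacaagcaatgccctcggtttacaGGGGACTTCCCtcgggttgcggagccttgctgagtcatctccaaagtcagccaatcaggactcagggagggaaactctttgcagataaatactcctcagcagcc
Cxcl9, chr5:92328080-92328329, minus strand: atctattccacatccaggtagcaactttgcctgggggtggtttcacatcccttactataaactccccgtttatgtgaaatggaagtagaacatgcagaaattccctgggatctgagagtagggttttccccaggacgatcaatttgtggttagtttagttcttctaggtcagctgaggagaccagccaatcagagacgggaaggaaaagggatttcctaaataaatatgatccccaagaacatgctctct
In the Cxcl10 window the response element GAAAGTGAAA lies 213 to 204 bases before the start. NF-kB matches lie 159 to 150 bases before it (GGGAAATTCC) and 104 to 94 bases before it, where GGGGACTTCC and GGGACTTCCC overlap. A gamma-activated site (TTCNNNGAA) was not matched in it. The windows of Cxcl9, Cxcr3 and Cxcr6 held none of the 3 motifs in these letters. Searched on both strands in 32851 windows of the same length, the response element was found in 2.98%, the gamma-activated site in 7.02% and the NF-kB consensus in 7.25%.

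The libraries held 9393 barcodes in wild-type, 10016 in Mfn2 and 9534 in Rhot1 tumours, with 112088653 to 118223251 UMIs each, and 9041, 9560 and 9138 cells were kept. The kept cells had a median of 9813 UMIs in the wild-type, 10854.5 in the Mfn2 and 12109 in the Rhot1 library. Libraries shared 20 to 35 barcodes by pair and no identical profile. Cells fell into 25 clusters, drawn without the 5 genes, and 11 classes were named from marker genes as "-like" cells. Clusters that no marker list named held 19.4%, 14.5% and 12.4% of the cells of the wild-type, the Mfn2 and the Rhot1 library. Over all kept cells Mfn2 was at 16.2 CPM (UMIs of the gene per 1000000 UMIs) in the wild-type, 20.3 in the Mfn2 and 20.7 in the Rhot1 library, and Rhot1 at 23.1, 23.7 and 25.2 CPM. These levels check nothing of the deletions, since Dmp1 itself gave 9, 6 and 3 UMIs and osteocytes were nearly absent.

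Cxcl9 and Cxcl16 were highest in the same classes, Cxcl10 in another, and both receptors in T cell-like cells. Among named classes with at least 10 cells in each library, the highest class was clear of the next for all but Cxcl9. Values below are given for the wild-type, the Mfn2 and the Rhot1 library in that order, as CPM of all UMIs of a class. Levels are set side by side within 1 gene only, because UMI counts are not per length. Among the named classes Cxcl9 was highest in macrophage-like cells (350, 242 and 232 CPM), a cluster led by the complement genes C1qa and C1qc with Ccl8, Folr2 and Mrc1. Conventional dendritic cell-like cells (156, 249 and 190 CPM) overlapped that range, and monocyte-like cells stood below both (153, 98.4 and 80.0 CPM). Cxcl10 was highest in monocyte-like cells (259, 283 and 447 CPM), whose lowest value was above the highest of any other named class with at least 10 cells in each library. Cxcl16 followed the order macrophage-like (263, 231 and 266 CPM), conventional dendritic cell-like (229, 148 and 172 CPM) and monocyte-like (72.9, 44.8 and 56.6 CPM) with no overlap between neighbours. Every other such class was at 8.64 CPM of Cxcl16 or less. Cxcr3 was highest of these classes in T cell-like cells (61.7, 44.6 and 104 CPM), above NK cell-like cells (37.5, 18.5 and 25.7 CPM) without overlap. Plasmacytoid dendritic cell-like cells (14, 3 and 11 cells) were too few to be ordered. They held Cxcr3 in 21.4%, 0 and 27.3% of cells, against 14.2%, 16.2% and 18.9% of T cell-like cells. Cxcr6 was high in T cell-like cells alone (276, 173 and 280 CPM), and the next highest value of any such class was 30.3 CPM, from 1 wild-type B lineage-like cell with 5 UMIs.

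**Figure D1:**
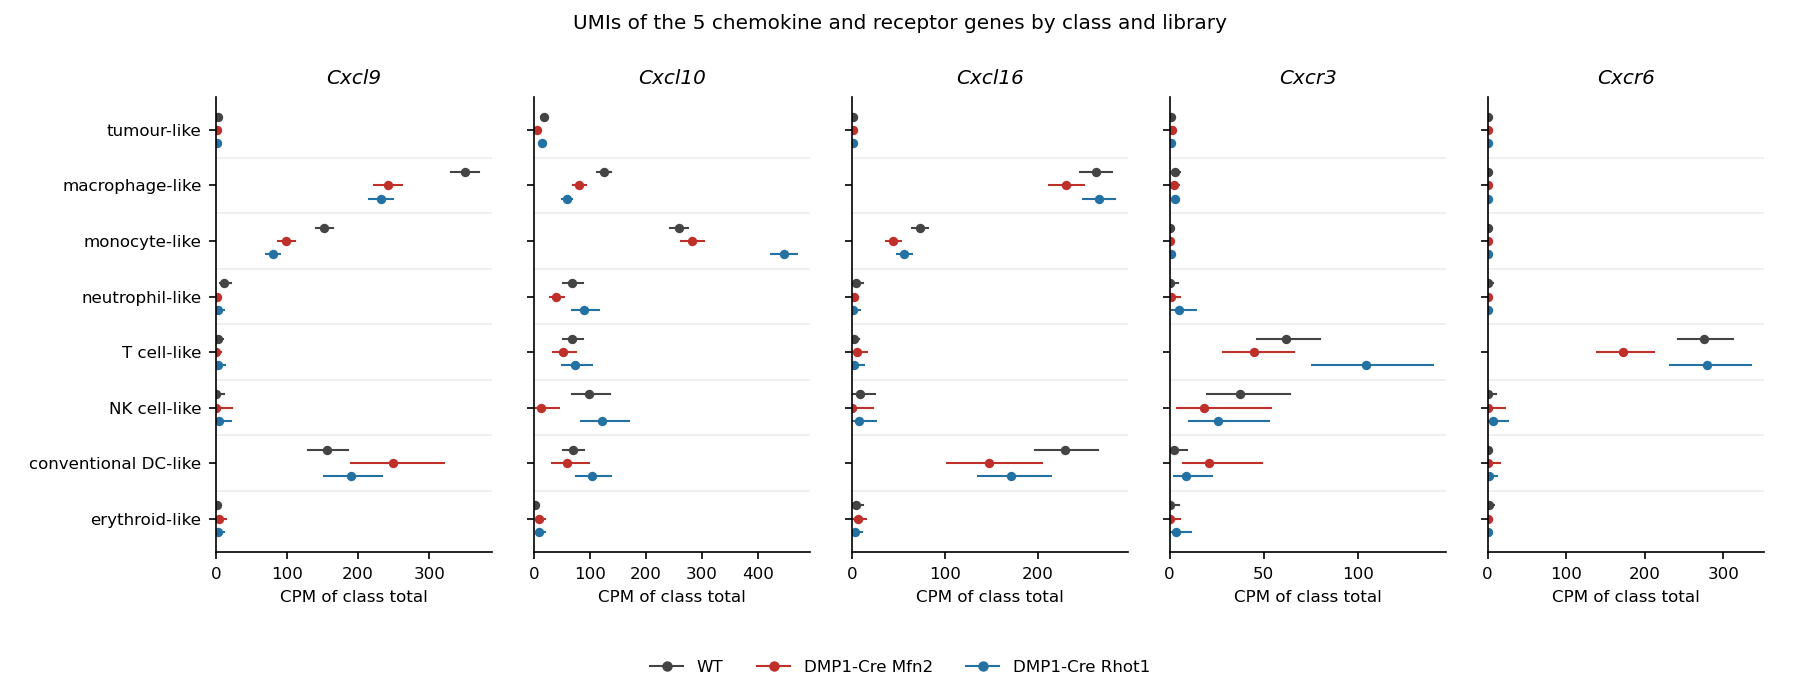
Level of each of the 5 genes by cell class, in CPM of the summed class UMIs, with 1 point per library (wild-type, Mfn2, Rhot1) and bars for the exact 95% counting interval. Cxcl9 and Cxcl16 peak in macrophage-like and conventional dendritic cell-like (DC-like) cells, Cxcl10 in monocyte-like cells (259 to 447 CPM), and Cxcr6 in T cell-like cells alone (173 to 280 CPM).

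Cxcl9 in macrophage-like cells was lower in both knockout libraries. The 450 wild-type macrophage-like cells held 1182 UMIs of Cxcl9, or 350 CPM (interval 330 to 371). The 410 Mfn2 cells held 615 UMIs, or 242 CPM (223 to 262), and the 488 Rhot1 cells held 800 UMIs, or 232 CPM (216 to 248). The wild-type library was high, and the intervals of the knockout libraries overlapped each other and not that of the wild-type. The ratio to wild-type was 0.690 (0.625 to 0.762) for Mfn2 and 0.662 (0.605 to 0.725) for Rhot1, and the Mfn2 library stood at 1.04 times the Rhot1 library (0.937 to 1.16). Both comparisons share the wild-type library. Over all alternative settings these ratios ranged from 0.558 to 0.707 for Mfn2 and from 0.504 to 0.750 for Rhot1, and none reached 1.

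Few cells carried the Cxcl9 message. Of the macrophage-like cells 110, 83 and 78 held a UMI of it (24.4%, 20.2% and 16%), and with every cell thinned to 1500 UMIs 15.6%, 12.7% and 10.5% did, which left out 0, 2 and 3 shallower cells. Unlike those of the CPM, the intervals of these thinned shares overlapped the wild-type for both knockouts (12.3% to 19.2%, 9.67% to 16.4% and 7.93% to 13.6%). In T cell-like cells, which are not known to make Cxcl9, it was seen in 1.01%, 0 and 0.629% of cells, at median depths of 2100, 2569 and 2154 UMIs against 7162, 5649 and 6524 in macrophage-like cells. A mere 12 wild-type, 10 Mfn2 and 10 Rhot1 cells held 50% of all Cxcl9 UMIs of the class, and the richest cell held 99, 57 and 54 UMIs. The level of the class thus rested on a small group of strongly positive cells in every library.

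**Figure D2:**
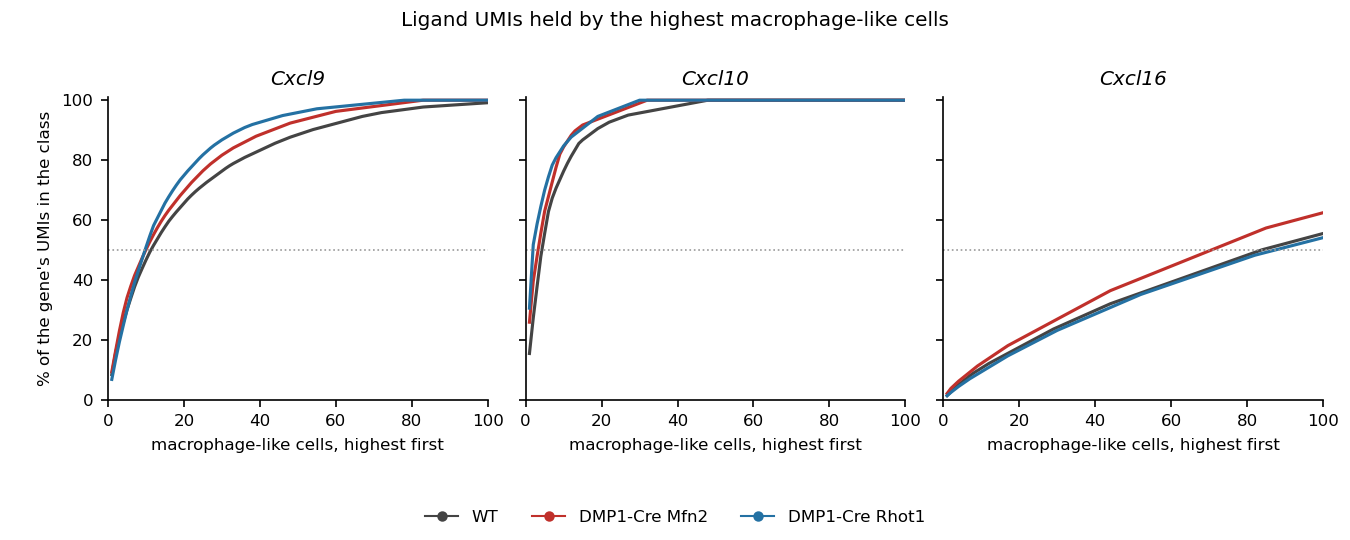
Cumulative percent of the UMIs of Cxcl9, Cxcl10 and Cxcl16 over macrophage-like cells ranked from the richest down, with 1 line per library. For Cxcl9 10 to 12 cells and for Cxcl10 2 to 5 cells reach 50%, while Cxcl16 needs 71 to 88 cells.

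Outside the macrophage-like class, Cxcl9 was lower in the knockout libraries in most myeloid cells. In the ordinary monocyte-like cells of cluster 4, led by Chil3, F10 and Vcan, it was at 51.1, 6.84 and 6.50 CPM. Those levels rested on 180, 16 and 18 UMIs and gave ratios of 0.134 and 0.127. Cluster 8, a set of Arg1-, Mmp12- and Hmox1-rich cells closest to macrophages that no marker list could name, had 29.4, 3.81 and 6.09 CPM (ratios 0.130 and 0.207). That cluster held 81, 11 and 12 UMIs of Cxcl9. In cluster 16, monocyte-like cells led by interferon-induced genes such as Rsad2, Ifit1, Ifit2 and Mx1, Cxcl9 was far higher (937, 685 and 464 CPM), with ratios of 0.731 (0.623 to 0.857) and 0.495 (0.422 to 0.581). Here too the wild-type library was the highest of the 3. Conventional dendritic cell-like cells had ratios of 1.59 (1.15 to 2.19) for Mfn2 and 1.21 (0.910 to 1.61) for Rhot1. Those values rested on 16 positive cells in the wild-type, 5 in the Mfn2 and 7 in the Rhot1 library, and the Mfn2 ratio became 0.789 with finer clusters and 0.625 with thinned counts. The Rhot1 ratio ran from 0.111 to 3.23 over 14 settings and was below 1 in 5 of them, so no direction held. Over all kept cells Cxcl9 UMIs numbered 2370, 1070 and 1330, of which macrophage-like cells gave 49.9%, 57.5% and 60.2%. The unnamed cluster 20, with Col1a2, Flt1 and Cldn5 among its leading genes, scored closest to endothelial cells. Its 30, 9 and 38 cells gave 164, 13 and 1 of the Cxcl9 UMIs (6.92%, 1.21% and 0.0752%). Their median depth was 4946, 5149 and 1711 UMIs.

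Cxcl10 differed between libraries by cell type, and no direction held across the myeloid classes. Macrophage-like cells held 422, 205 and 203 UMIs of it, or 125 CPM (113 to 137), 80.5 CPM (69.9 to 92.4) and 58.8 CPM (51.0 to 67.5). The wild-type library was again highest, with ratios of 0.645 (0.543 to 0.763) for Mfn2 and 0.471 (0.396 to 0.558) for Rhot1. But 5, 4 and 2 cells held 50% of these UMIs, and the positive cells made up 10.7%, 7.80% and 6.15% of the class. The Rhot1 ratio turned to 1.33 with finer clusters, to 1.06 where cells were gated on markers and to 1.30 over all mononuclear phagocyte clusters together. The lower Cxcl10 of Rhot1 macrophage-like cells therefore depended on which cells the class held.

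In monocyte-like cells the Rhot1 library was the high one. Cxcl10 stood at 259 CPM (244 to 275) in the wild-type, 283 CPM (263 to 303) in the Mfn2 and 447 CPM (425 to 470) in the Rhot1 library, and the ratios were 1.09 (0.992 to 1.2) and 1.73 (1.59 to 1.87). The interferon-led cluster 16 gave most of it, at 1814, 1976 and 2687 CPM (ratios 1.09 and 1.48) in 108, 83 and 131 cells. Its share of positive cells was nearly flat, at 50.9%, 47.0% and 54.2%. The ordinary monocyte-like cells of cluster 4 were instead lower in both knockouts, at 57.7, 18.4 and 18.4 CPM. The Rhot1 ratio in monocyte-like cells fell below 1 under other settings that redraw the class, to 0.697 with finer clusters, 0.408 with predicted doublets kept and 0.0483 where libraries were clustered separately. The neighbouring genes thus parted in cluster 16, where Rhot1 cells held less Cxcl9 and more Cxcl10 than wild-type cells.

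Tumour-like and monocyte-like cells were the main sources of Cxcl10 by count. Monocyte-like cells gave 30.2%, 45.2% and 44.3% of all Cxcl10 UMIs. Tumour-like cells gave 42.5%, 33.7% and 41.7% at 18.2, 5.79 and 14.1 CPM, against 2.15, 0.916 and 1.36 CPM of Cxcl9. Within them cluster 15, led by the interferon-induced genes Ifit1, Apol9a, Oasl1 and Rsad2, stood at 432, 217 and 392 CPM (ratios 0.502 and 0.906). That cluster of 136, 88 and 170 cells held 29.9%, 17.9% and 31.4% of all Cxcl10 UMIs of its library. Cxcl10 was also seen at moderate levels in T cell-like (68.3, 52.0 and 73.5 CPM), NK cell-like (97.9, 12.3 and 121 CPM), neutrophil-like (68.3, 39.2 and 89.3 CPM) and conventional dendritic cell-like cells (69.1, 59.0 and 104 CPM). These classes overlapped one another and the macrophage-like range. In neutrophil-like cells Cxcl10 was past 1.5-fold lower with Mfn2 and not with Rhot1, but 27.6% of genes passed that fold with Mfn2 (13.6% higher and 14% lower) and 25.3% with Rhot1 (14.5% higher and 10.9% lower). Erythroid-like cells, at 1.36, 9.25 and 9.33 CPM, overlapped the range of tumour-like cells at the low end of the larger classes.

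**Figure D3:**
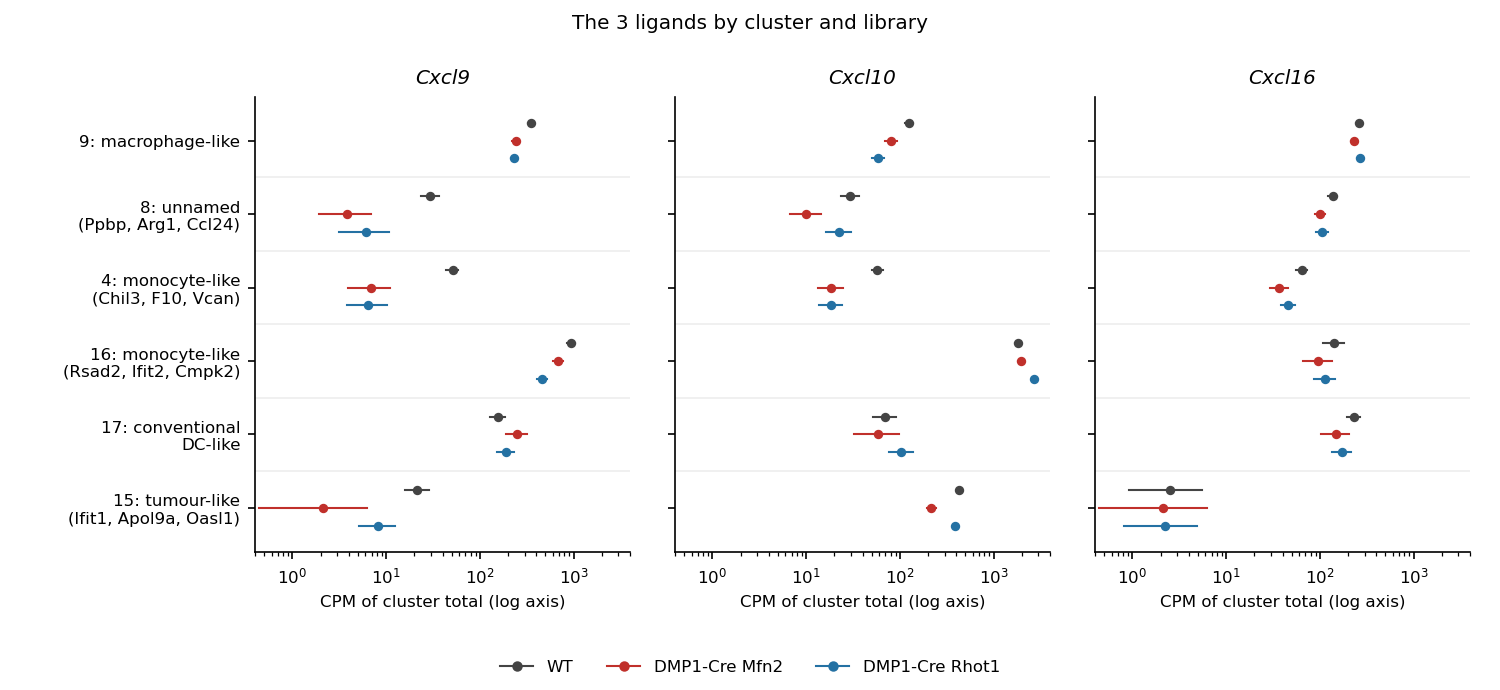
Levels of Cxcl9, Cxcl10 and Cxcl16 in single clusters of macrophage, monocyte, dendritic and tumour cells, in CPM on a log axis, with 1 point per library and exact 95% counting intervals. The interferon-led cluster 16 carries the highest Cxcl10 (1814 to 2687 CPM), and in cluster 4 Cxcl9 is at 51.1 CPM in the wild-type against 6.84 and 6.50 CPM in the knockout libraries.

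Cxcl16 was spread over many cells and differed little in macrophage-like cells. They held 887, 588 and 917 UMIs, or 263 CPM (246 to 281), 231 CPM (213 to 250) and 266 CPM (249 to 283). The Mfn2 library was slightly low, with a ratio of 0.880 (0.791 to 0.977), and the Rhot1 ratio was 1.01 (0.921 to 1.11). At least 1 UMI was present in 75.3%, 65.1% and 72.3% of the cells, and the richest cell of each library held 12. It took 84, 71 and 88 cells to reach 50% of the UMIs, unlike the handful of cells that carried Cxcl9 and Cxcl10. Thinned to 1500 UMIs the share of positive cells was 27.3%, 27.2% and 33.0%, against 0.676%, 2.86% and 0.629% of T cell-like cells unthinned.

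Cxcl16 was lower in the knockout libraries in monocyte-like cells, conventional dendritic cell-like cells and cluster 8. Monocyte-like cells gave ratios of 0.614 (Mfn2) and 0.777 (Rhot1), and conventional dendritic cell-like cells 0.644 and 0.750. The monocyte-like ratio was below 1 in 14 of 14 settings with Mfn2 and in 11 of 14 with Rhot1 (0.703 to 1.08). For the dendritic cell-like ratio this held in 13 of 14 with Mfn2 (0.512 to 1.63) and in 14 of 14 with Rhot1. In monocyte-like cells the 8 neutrophil markers, all detected, summed to 916, 2619 and 1124 CPM, highest in the Mfn2 library, and the monocyte markers to 4836, 6579 and 5799 CPM. The part of neutrophil RNA in the ratios of this class, those of Cxcl9 and Cxcl10 included, was not tested. The unnamed cluster 8 had 137, 100 and 106 CPM and held 19.7%, 25.1% and 13.1% of all Cxcl16 UMIs. The interferon-led cluster 16, so rich in the other ligands, was at 140, 95.9 and 113 CPM, below macrophage-like cells in every library. Tumour-like cells were at 1.35, 0.906 and 1.44 CPM.

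The count of ligands past 1.5-fold was read against the share of all genes past that fold in the same class. With Mfn2 over wild-type in macrophage-like cells 1 of the 3 ligands was lower past 1.5-fold (Cxcl10) and none higher, where 7.13% of 7796 genes passed that fold in either direction, 3.23% higher and 3.9% lower. With Rhot1 over wild-type Cxcl9 and Cxcl10 were lower, Cxcl16 did not pass and none was higher, where 4.55% of 7843 genes passed, 2.68% higher and 1.87% lower. In monocyte-like cells Cxcl9 and Cxcl16 were lower in the Mfn2 library past this fold, where 5.83% of genes passed, 3.25% higher and 2.58% lower. In the same class Cxcl9 was lower and Cxcl10 higher in the Rhot1 library, where 4.2% of genes passed, 2.56% higher and 1.63% lower. In conventional dendritic cell-like cells 38.1% of genes passed with Mfn2 (18% higher and 20.2% lower) and 27.8% with Rhot1 (15% higher and 12.8% lower), so that the 2 higher (Cxcl9 and Cxcr3) and 1 lower (Cxcl16) of the 4 genes measured with Mfn2, and none with Rhot1, tell little there. In tumour-like cells Cxcl10 was past the fold with Mfn2 (ratio 0.319), where 2.19% of genes passed (1.27% higher and 0.919% lower), and not with Rhot1 (0.775), where 1.46% did (0.753% higher and 0.703% lower).

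Cells that held RNA of other types were present in the macrophage-like class. Its macrophage markers were level (9 of 9 detected, summing to 31173, 31958 and 32980 CPM), and tumour markers summed to 102, 146 and 120 CPM, with Krt19, Cldn4 and Epcam at 0 in every library. Erythroid markers summed to 7.70, 697 and 26.1 CPM, highest in the Mfn2 library, and the median mitochondrial share was 0.963%, 1.16% and 1.36%. Without the cells that held any UMI of a tumour marker, 227, 215 and 233 cells were left. In those cells the ratios to wild-type were 0.659 and 0.587 for Cxcl9, 0.248 and 0.349 for Cxcl10, and 0.838 and 0.944 for Cxcl16. The part of erythroid RNA and of mitochondrial share in these ratios was not tested.

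Cxcl9 was found more often in cells that held Cxcl10. Among wild-type macrophage-like cells with a Cxcl10 UMI, 58.3% (28 of 48) also held Cxcl9, against 20.4% of the other cells. The shares were 53.1% against 17.5% in the Mfn2 and 40.0% against 14.4% in the Rhot1 library. Thinned to equal depth they were 54.2% against 13.4%, 60.0% against 10.9% and 26.3% against 9.87%. With thinned counts the intervals overlapped in the Rhot1 library alone, where 5 of 19 Cxcl10-positive cells held Cxcl9. Monocyte-like cells showed the same pairing, with Cxcl9 in 27.0% of Cxcl10-positive cells against 3.64% of the others in the wild-type. Those shares were 32.0% against 1.96% in the Mfn2 and 9.57% against 3.36% in the Rhot1 library. The Rhot1 intervals overlapped (4.47% to 17.4% and 2.17% to 4.96%), though not with thinned counts. This class holds clusters 4 and 16, and cluster 16 was higher in both ligands. Whether the pairing held within either cluster was not tested. Cxcl9 was less frequent in macrophage-like cells with a UMI of Spp1, osteopontin, than in those without: 22.1% against 37.9%, 15.8% against 35.5% and 12.6% against 27.2%, with intervals that overlapped in the wild-type alone. With and without Folr2, the folate receptor of tissue macrophages, the shares were 22.7% and 37.0%, 19.8% and 23.1%, and 14.8% and 26.5%, and their intervals overlapped in every library. Cells of 1 library are not replicates, so these shares are descriptions.

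The interferon-gamma pathway upstream of the ligands had median ratios slightly below those of all genes in macrophage-like cells. Of the 9 listed genes 8 were measured with Mfn2, none was past 1.5-fold in either direction, and the median ratio was 0.971 against 0.986 over all genes. Of all genes 3.23% were higher and 3.9% lower. With Rhot1 1 of 7 was lower (Irf1), none was higher, and the median was 0.944 against 1.02, where 2.68% of all genes were higher and 1.87% lower. In lists this short, counts of 0 or 1 tell little of the list. Irf1, a transcription factor that interferon-gamma induces, was at 63.1, 45.2 and 35.3 CPM (ratios 0.716 and 0.560). It was highest in the wild-type, as Cxcl9 was. Jak2, a kinase of the receptor, went the other way with Rhot1, at 1.5 (1.04 to 2.16), just short of the fold. With Mfn2 it was at 1.2 on 48 against 53 UMIs, and the interval held 1 (0.796 to 1.81). Macrophage-like cells held 0, 0 and 1 UMI of Ifng itself. In monocyte-like cells none of 8 genes was past the fold with either knockout, with medians of 1.003 and 0.995 against 1.03 and 1.02 over all genes. There 3.25% of all genes were higher and 2.58% lower with Mfn2, and 2.56% and 1.63% with Rhot1.

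Genes that cut or trim the ligands, and the further ligands of CXCR3, were described in the same class. Of 6 measured shedding genes in macrophage-like cells, with Mfn2 1 was higher (Adam8, ratio 1.52) and 1 lower (Ctsk, 0.390), with a median of 0.872 against 0.986 over all genes, of which 7.13% passed the fold. With Rhot1 2 of 6 were lower (Ctsk, 0.378, and Mmp9, 0.657) and none higher, with a median of 0.849 against 1.02 over all genes, of which 4.55% passed. Ctsk and Mmp9 are also osteoclast and neutrophil genes, and the 7 osteoclast markers summed to 114, 53.8 and 59.4 CPM in this class. Adam10, the main sheddase of CXCL16, had ratios of 0.823 and 0.891. Pf4, a platelet chemokine that can bind CXCR3, was at 6380, 8216 and 8455 CPM (ratios 1.29 and 1.33) and was the only measured gene of its list. Cxcl11, the third interferon-induced ligand of CXCR3, gave 120, 42 and 109 UMIs over all kept cells, of which macrophage-like cells held 15, 0 and 9. Of the 4 polarity genes Spp1, Arg1, Trem2 and Folr2, Arg1 (1.76) and Spp1 (1.62) were higher past 1.5-fold with Mfn2 and none lower, with a median of 1.37 against 0.986, where 3.23% of all genes were higher. None passed with Rhot1, with a median of 1.06 against 1.02.

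Cxcr3, the receptor of CXCL9 and CXCL10, was seen in a minority of T cell-like cells. The 296 wild-type cells held 56 UMIs, or 61.7 CPM (46.6 to 80.2), the 105 Mfn2 cells 24 UMIs, or 44.6 CPM (28.6 to 66.3), and the 159 Rhot1 cells 44 UMIs, or 104 CPM (75.8 to 140). The Rhot1 library was highest, but its interval overlapped that of the wild-type, which overlapped that of the Mfn2 library. The ratio to wild-type was 0.722 (0.428 to 1.18) for Mfn2 and 1.69 (1.11 to 2.55) for Rhot1, and with cells thinned to equal depth the Rhot1 ratio was 1.01. The receptor was seen in 14.2%, 16.2% and 18.9% of the cells, and thinned (with 83, 25 and 36 shallower cells left out) in 12.2%, 6.25% and 13%, against 2.00%, 1.46% and 1.43% of macrophage-like cells at greater depth. NK cell-like cells held 13, 3 and 7 UMIs, too few to order the libraries.

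By count, tumour-like cells held 42.3%, 76.1% and 53.8% of all Cxcr3 UMIs, but this was a thin layer over many deep cells. Their level was 0.864, 1.36 and 0.931 CPM, and 1.47%, 1.95% and 1.43% of them held a UMI. That level was close to those of the monocyte-like and neutrophil-like cells, which were at 0 to 4.78 CPM. For this reason the totals over all cells (163, 176 and 171 UMIs of Cxcr3) say nothing of T cells.

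Cxcr6, the receptor of CXCL16, came mostly from the T cell-like class, which held 89.0%, 83.8% and 89.4% of its UMIs. The level was 276 CPM (242 to 312; 250 UMIs) in the wild-type, 173 CPM (139 to 212; 93 UMIs) in the Mfn2 and 280 CPM (231 to 335; 118 UMIs) in the Rhot1 library. The Mfn2 library was low and the other libraries overlapped, with ratios of 0.627 (0.489 to 0.798) and 1.02 (0.808 to 1.27). The share of positive cells did not follow, at 41.2%, 42.9% and 33.3%, and thinned 33.8%, 35.0% and 30.9%. Over all kept cells Cxcr6 UMIs numbered 281, 111 and 132, with 296, 105 and 159 T cell-like cells to carry them.

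In T cell-like cells tumour markers were highest in the Mfn2 library, which had the lower Cxcr6. They summed to 328, 761 and 218 CPM (5 of 8 detected, with Krt7, Krt19 and Cldn4 at 0). The 12 T cell markers summed to 5047, 3280 and 6033 CPM. In the Mfn2 library 39 of 105 T cell-like cells held a UMI of a tumour marker, with a median of 6774 UMIs per cell against 2179 in the others. In the wild-type 95 of 296 held one (medians 2240 and 1998 UMIs), and in the Rhot1 library 44 of 159 (medians 2335.5 and 2108 UMIs). Without those cells Cxcr6 stood at 350, 379 and 300 CPM, so that the Mfn2 ratio turned to 1.08, and Cxcr3 at 95, 78.5 and 112 CPM. In T cell-like cells free of tumour markers the Mfn2 level of Cxcr6 was as high as that of the wild-type. Leaving out marker cells also took away deeper cells of the Mfn2 library. The part of tumour RNA and of depth in the lower Cxcr6 was not tested. Neutrophil markers, which summed to 1975, 236 and 543 CPM in T cell-like cells, also moved with the libraries, and their part was not tested.

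For both receptors the share of all genes past 1.5-fold in this small class was high, so the ratios carry little weight. With Mfn2 Cxcr6 was lower and none of the 3 genes measured was higher (Cxcl10, Cxcr3 and Cxcr6), where 35.4% of 8597 genes passed in either direction, 19.5% higher and 15.8% lower. With Rhot1 Cxcr3 was higher and none lower, where 26.8% of 8412 genes passed, 12.5% higher and 14.3% lower. In NK cell-like cells both measured genes (Cxcl10 and Cxcr3) were lower with Mfn2, where 49.5% of genes passed (24.8% higher and 24.7% lower), and neither passed with Rhot1, where 38.9% did (19% higher and 19.8% lower).

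**Figure D4:**
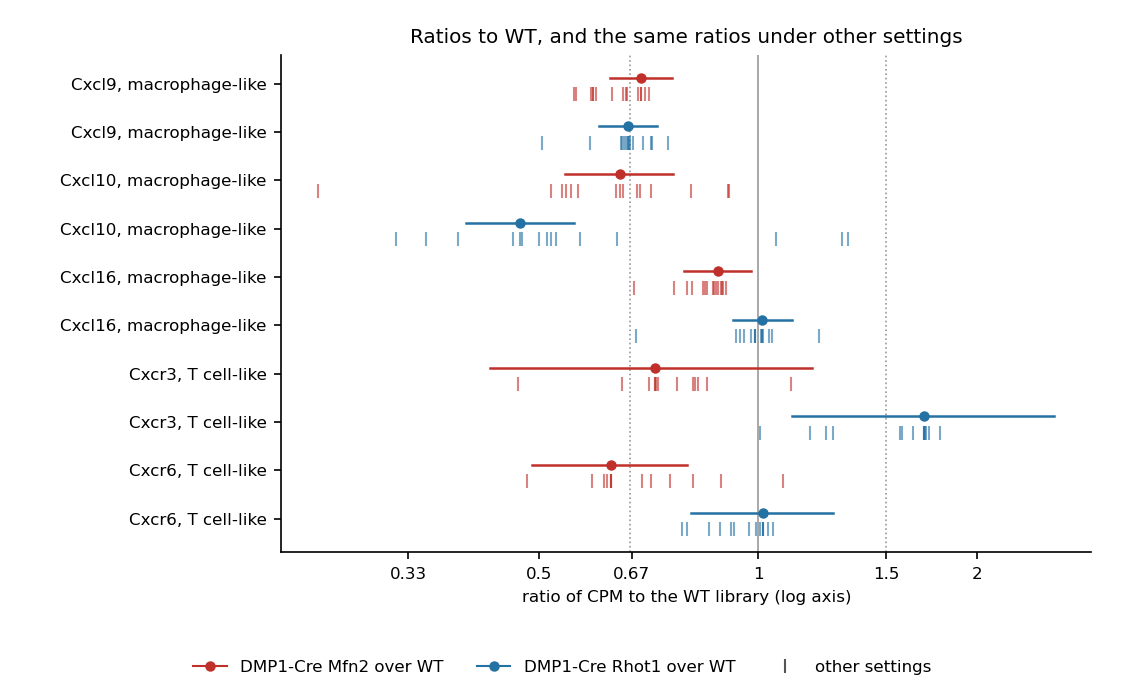
Ratio of each knockout library to the wild-type library on a log axis, for the 3 ligands in macrophage-like and the 2 receptors in T cell-like cells. Points with bars are the reported ratios with exact 95% counting intervals, small ticks are the other settings, and dotted lines mark 1.5-fold. Cxcl9 stays below 1 in every setting for both knockouts, while Cxcl10 with Rhot1 spans 0.318 to 1.33.

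Within the T cell-like class the receptors followed different subsets. Pooled over the libraries, 249 cells held a UMI of Cd8a or Cd8b1 alone among the gating genes, 43 held Foxp3, the factor of regulatory T cells, 38 held Cd4 without Foxp3 and 225 held none of them. Cxcr6 was seen in 53.8% of the CD8 cells (134 of 249; 307 CPM), 36.8% of the Cd4 cells (227 CPM) and 31.1% of the ungated cells (207 CPM). Of the Foxp3 cells a single one in 43 held it (2.33%; 8.34 CPM, interval 0.211 to 46.5). Cxcr3 had no such gap, at 15.7% of CD8 cells (54.4 CPM), 18.6% of Foxp3 cells (134 CPM, interval 76.3 to 217), 28.9% of Cd4 cells (92.5 CPM) and 13.8% of ungated cells (70.0 CPM). So Foxp3 cells were the low end for Cxcr6 and not for Cxcr3.

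The same was seen in each library as far as cell numbers allowed. CD8 cells held Cxcr6 at 305, 264 and 358 CPM with overlapping intervals, and 52.6%, 67.3% and 47.6% of them were positive. The Foxp3 cells numbered 17, 12 and 14 and held 1, 0 and 0 UMIs of Cxcr6 but 4, 2 and 10 UMIs of Cxcr3. Ungated cells held Cxcr6 at 274, 52.2 and 203 CPM, so that the low Mfn2 value of the class lay mainly there. A missing Cd8a or Cd4 UMI does not show that a cell lacks the protein.

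**Figure D5:**
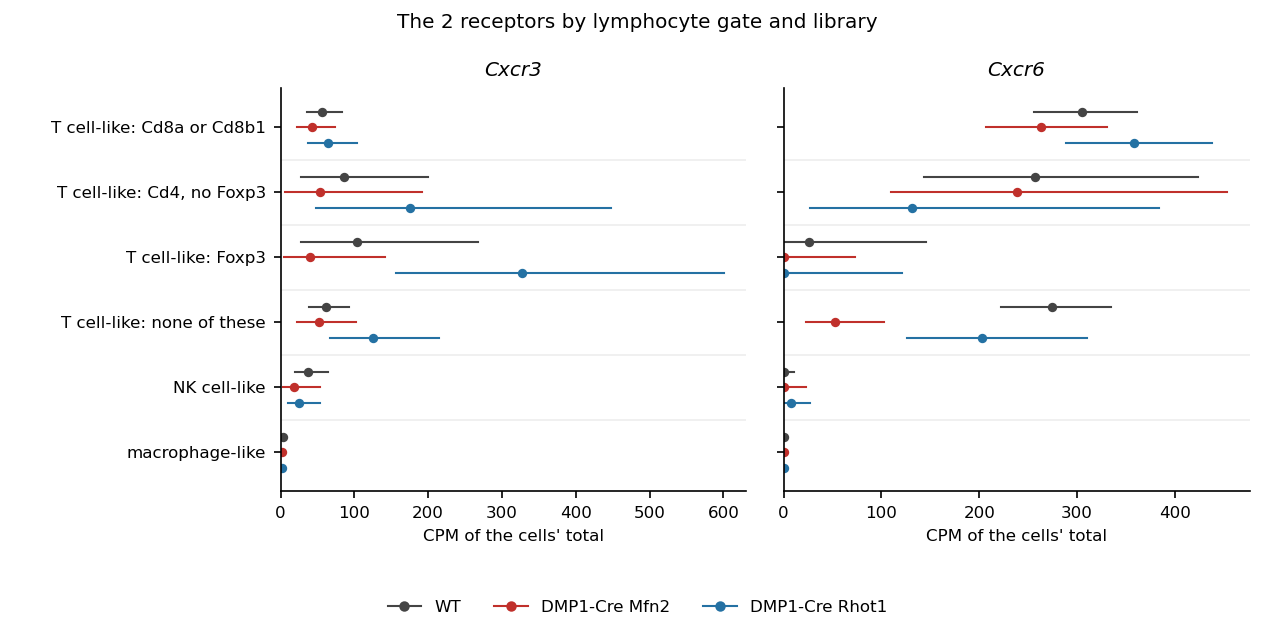
Levels of Cxcr3 and Cxcr6 in T cell-like cells by gate (CD8, Cd4 without Foxp3, Foxp3, no gating UMI), in CPM with 1 point per library and exact 95% counting intervals. Cxcr6 is at 264 to 358 CPM in CD8 cells and at 0 to 26.1 CPM in Foxp3 cells, while Cxcr3 shows no such gap.

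The receptors were not seen together more often than apart. Of wild-type Cxcr6-positive T cell-like cells 11.5% held Cxcr3, against 16.1% of the others. The shares were 20% against 13.3% in the Mfn2 and 11.3% against 22.6% in the Rhot1 library, and the intervals of the shares overlapped in each library. Cells with a UMI of Ifng, the cytokine that induces Cxcl9, held Cxcr6 more often than cells without in all 3 libraries: 57.9% against 38.8%, 65.2% against 36.6% and 68.8% against 29.4%. Thinned to equal depth the shares were 40.0% against 33.3%, 64.3% against 28.8% and 50% against 29.2%. The intervals overlapped in all 3 libraries with thinned counts, and in all but the Rhot1 library without thinning. Ifng in T cell-like cells stood at 89.3, 91.0 and 209 CPM, and 66 of the 88 Rhot1 UMIs came from 1 cell.

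Genes that carry or end the receptors' signal to cell movement were lower by count in Mfn2 T cell-like cells. Of 10 measured genes 5 were lower past 1.5-fold and 1 higher, with a median ratio of 0.675 against 1.03 over all genes, of which 15.8% were lower and 19.5% higher. Gnai3, an inhibitory G protein, was among the lowest (0.461, interval 0.295 to 0.701), and Gnb2, a G protein subunit, among the highest (1.40, 1.14 to 1.72). Pik3cg, a lipid kinase driven by G protein subunits, was at 0.440 on 6 against 23 UMIs (0.146 to 1.11). Arrb1, an arrestin that ends receptor signalling, was at 2.14 on 14 against 11 UMIs (0.904 to 5.22), so both intervals held 1. The transcription factors tied to cells with these receptors gave 4 lower and none higher of 8, with a median of 0.667, beside those same shares and median over all genes, among them Bhlhe40 (0.431) and Runx3 (0.549), while Tbx21, which drives Cxcr3, was at 1.05. These lower values stood beside the tumour RNA of the Mfn2 T cell-like cells given above. The 12 T cell markers were lower there too, at 3280 CPM against 5047 CPM in the wild-type. The part of either in these values was not tested. With Rhot1 1 of 10 signalling genes was lower and none higher (median 0.95 against 0.992; 14.3% of all genes lower and 12.5% higher), and none of the 8 factors passed in either direction (median 1.22).

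Over 24 class-by-library sums of 8 classes, the genes whose levels most resembled each chemokine gene were ranked by Pearson's r of log2(CPM + 5) among 5591 genes. The sums share libraries and class depth, so r is a description. Among the genes closest to Cxcl9 were Shtn1 (0.972) and Ifi30 (0.971), a lysosomal reductase of antigen processing. Cxcl10 had weaker matches, led by Add3 (0.928), Itgb2 (0.904) and Trafd1 (0.892). Cxcl16 was closest to Necap2 (0.971), Hfe (0.963) and Fgd2 (0.962). Cxcr3 was closest to Il27ra (0.940), a subunit of the interleukin-27 receptor, Tespa1 (0.939) and Fam189b (0.938). Cxcr6 was closest to Klrh1 (0.994), to Trac (0.989), the constant chain of the T cell receptor, and to Themis (0.988). Between the 5 genes themselves Cxcl9 and Cxcl16 had the highest r (0.97), the receptors 0.774, and Cxcl10 stood apart from Cxcl9 (0.567) and Cxcl16 (0.529).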

How the data were processed

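Tumours were digested with collagenase IV (2 mg/ml) for 1 h, passed through 70 µm filters and sorted for live cells, per the labels' protocols. The deposited matrices hold raw UMI counts per gene and barcode made with Cell Ranger 7.0.0, per the file headers, with the build given as mm10 by the submitters' processing notes. Which annotation, intron and strand settings were used is not given in the sources. From them, cells with at least 300 genes and at most 15% mitochondrial UMIs were kept, and Scrublet doublets (scanpy 1.11.5) were removed: 254, 308 and 221 cells (2.73%, 3.12% and 2.36%). The genes described, with Cxcl11, were left out of the clustering (2000 variable genes, 30 components, 15 neighbours, leidenalg 0.10.2 at resolution 1). Clusters were named from marker lists, and macrophage-like cells were the main class for ligands and T cell-like cells for receptors. UMIs were summed per class and library with exact Poisson, Clopper-Pearson and conditional intervals (scipy 1.17.1). Ratios were called past 1.5-fold for genes at a mean of 10 CPM or more over the libraries compared. The same code was tested on simulated data. The 5 genes are always named, and of each pathway list the 2 highest and 2 lowest ratios could be named, with others of a list named as its members. The 5 genes, lists and markers were chosen with earlier results of these data known. Genes most alike were ranked among those at 50 CPM or more in at least 1 sum, over classes with 30 or more cells in every library. Alternatives changed filters, clustering, gates, depth and cells left out. Some genes that these rules would name are not reported here.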

Additional observations from a re-analysis of the deposited data

Results flagged for a closer look

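With Mfn2 over wild-type, Cxcl9 went opposite ways in different classes, with intervals that left out 1 on both sides. The ratio was 0.690 in macrophage-like cells, 0.645 in monocyte-like cells and 0.425 in tumour-like cells, against 1.59 in conventional dendritic cell-like cells, where 5 Mfn2 cells held all the UMIs. The tumour-like ratio set 0.916 CPM against 2.15 CPM in the wild-type, below the mean of 10 CPM asked of called ratios. With Rhot1 over wild-type, Cxcl10 also went opposite ways: 0.471 in macrophage-like cells and 0.775 in tumour-like cells against 1.73 in monocyte-like cells. Under settings that redraw the classes the macrophage-like ratio turned to 1.33, 1.06 and 1.30, and the monocyte-like ratio to 0.697, 0.408 and 0.0483. The tumour-like ratio of Cxcl10 stayed below 1 in 14 of 14 settings (0.427 to 0.886). The dendritic cell-like Cxcl9 ratio turned to 0.789 and 0.625. With 1 library per genotype the differences between classes were not tested.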

How the results depend on the processing

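No paired analysis was possible because each genotype has 1 library. Most ratios of the main classes (110) stayed within counting error under the alternatives, 30 moved and 4 changed direction. The Cxcl9 ratio with Mfn2 in macrophage-like cells moved to 0.598 with predicted doublets kept, 0.561 at resolution 0.5, 0.592 with a marker gate, 0.558 with the chemokine genes allowed in the clustering, 0.589 with thinned counts and 0.593 over all mononuclear phagocyte clusters. With Rhot1 it moved to 0.750 under stricter filters, 0.504 with the gate and 0.587 without cells that held a tumour marker. Cxcl10 with Mfn2 moved to 0.520 at resolution 0.5, 0.908 at resolution 2, 0.910 with the gate, 0.537 without the 5 richest cells, 0.809 over the phagocyte clusters and 0.248 without tumour marker cells. Cxcl10 with Rhot1 changed direction at resolution 2 (1.33), with the gate (1.06) and over the phagocyte clusters (1.30), and moved to 0.569 with the chemokine genes allowed, 0.386 without the richest cell, 0.639 thinned, 0.318 without the 5 richest cells and 0.349 without tumour marker cells. Cxcl16 with Mfn2 moved to 0.765 at resolution 0.5 and 0.674 with the gate, and with Rhot1 to 0.678 with the gate and 1.21 thinned. Cxcr3 with Rhot1 in T cell-like cells was 1.01 thinned. Cxcr6 with Mfn2 was 0.888 thinned, 0.814 with cells weighted alike, 0.480 without the 5 richest cells and 1.08 without tumour marker cells, which changed its direction, and with Rhot1 it was 0.798 with doublets kept and 0.786 with cells weighted alike. In other classes, direction changed for Cxcl9 in conventional dendritic cell-like cells with Mfn2 (0.789 at resolution 2, 0.625 thinned), Cxcl9 in tumour-like cells with Rhot1 (1.69 with cells weighted alike), Cxcl10 in monocyte-like cells with Rhot1 (0.408 with doublets kept, 0.697 at resolution 2, 0.0483 where libraries were clustered separately) and Cxcl16 in conventional dendritic cell-like cells with Mfn2 (1.63 under stricter filters). Cxcl9 in conventional dendritic cell-like cells with Rhot1, whose interval held 1, was below 1 in 5 of 14 settings (0.111 to 3.23). Cxcl16 in monocyte-like cells with Rhot1 was below 1 in 11 of 14 settings (0.703 to 1.08). Apart from classes and thinning drawn anew, the cause of these moves was not tested. The settings over all phagocyte clusters, with cells weighted alike, without the 5 richest cells and without tumour marker cells were chosen after seeing the data. No Mfn2 value in T cell-like cells could be had where libraries were clustered separately, since no cluster took that name. The receptor levels of T cell-like cells rest on 24 to 250 UMIs a library.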
